A study of Mus musculus with 9 samples.

Results

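Baseline RNA recovered with RIG-I was examined in control melanoma cells, in the 3 shCtr libraries out of the 9 samples of the series. They were chosen by their label as controls, with no measured value involved, and no comparison with another group was made. The cells were B16F10, a mouse melanoma line, stably expressing a FLAG-tagged RIG-I construct together with a non-targeting control shRNA. Complexes of RIG-I and RNA were pulled from cleared lysates with beads against the FLAG tag, and the eluted RNA was depleted of ribosomal RNA and sequenced as paired-end reads. The replicates came from independent experiments. Neither the RNA of the whole lysate nor a mock precipitate was analysed here, so a value gives the share of a gene among the counts of the listed genes, and the abundance of a transcript in the cell and its recovery with RIG-I cannot be told apart.

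RIG-I is a cytosolic helicase that senses RNA, above all double-stranded RNA with a phosphorylated, uncapped 5′ end, as many viruses produce. On binding it changes shape and signals through the mitochondrial adaptor MAVS to the kinase TBK1 and the transcription factor IRF3, which switch on type I interferon genes. RNA of the host can also be bound, and an immunoprecipitate of RIG-I therefore holds cellular transcripts.

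The 3 libraries held 40333037, 47750758 and 41805753 counts in replicates 1, 2 and 3, over 22396 listed genes. Of these 21453 are protein-coding and held at least 99.8% of the counts, and the rule by which genes entered the table is unknown, so shares refer to the listed genes and say nothing of other RNA that RIG-I may bind. Levels are given as CPM, the count of a gene per 1000000 counts of its library, and as the mean ± SD over the 3 libraries unless all 3 values are given. A gene was called detected with a CPM of at least 1 in each of the 3 libraries. A count of 0 allows a level of up to 0.0744, 0.0628 and 0.0718 CPM in replicates 1, 2 and 3 (3 counts). This limit reflects counting alone, because without molecular identifiers 1 molecule can yield several reads. Osgep, the gene targeted in the knockdown groups of the study, was present in every control library, at 19.1, 19.9 and 15.5 CPM. Markers of the pigment cell lineage were present as well (33 of 33 melanin and melanosome genes and 13 of 20 lineage regulators were detected, beside 49.0% of all listed genes).

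Replicate 3 stood apart from the other libraries. Across the 10970 detected genes, log2 CPM had a Pearson correlation of 0.991 between replicates 1 and 2, of 0.977 between 1 and 3 and of 0.982 between 2 and 3, as a description, since genes are not independent replicates. Among genes with a mean CPM of at least 10, 7 differed at least 2-fold between replicates 1 and 2, against 158 between 1 and 3 and 100 between 2 and 3. The common dispersion, edgeR's estimate of the spread between replicates, was 0.0297 (a coefficient of variation of 17.2%) with all 3 libraries and 0.0130 (11.4%) without replicate 3. All 3 libraries were kept.

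The counts were spread over many of the listed genes. Of the 22396 genes, 10970 were detected, 472 reached 1 CPM in only 1 or 2 libraries and 7601 had 0 counts in all 3. No small set of genes dominated, because 50% of the counts were reached only with 1023, 1038 and 1028 genes in replicates 1, 2 and 3, and 90% with 5426, 5421 and 5390 genes. The 10 genes with most counts held 5.87%, 5.68% and 5.24% of them (5.60% ± 0.325, SD, n = 3). Levels of at least 1000 CPM were reached by 67, 66 and 75 genes, and of at least 100 CPM by 2537, 2539 and 2528. The head of the ranking was alike in the libraries, with 6 genes among the first 10 of every library and 77 among the first 100 of every library.

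Genes of protein synthesis, glycolysis, iron storage and the cytoskeleton led the ranking by CPM. Eef1a1, the elongation factor that brings aminoacyl-tRNA to the ribosome, came first in each library (12339, 13022 and 13118 CPM). It was followed by Ftl1, the ferritin light chain that stores iron (8943, 8283 and 6953 CPM), Gapdh of glycolysis (7799, 7110 and 4815 CPM) and Actb, a cytoplasmic actin (5688, 5965 and 6978 CPM). Replicate 3 was the lowest of the libraries for Ftl1 and Gapdh and the highest for Actb. The translocation factor Eef2 (6214, 5367 and 4452 CPM) and the glycolytic enzymes Eno1 (3714, 3763 and 2780 CPM), Aldoa (3900, 3641 and 2329 CPM) and Pkm (3070, 2887 and 2132 CPM) also stood among the first 20. So did Ccnd2, a D-type cyclin that drives entry into S phase (2959 ± 227 CPM), Sqstm1, a receptor of selective autophagy (3570, 3553 and 1582 CPM), and the chaperones Hspa8 (2896 ± 711 CPM) and Hsp90ab1 (2196 ± 322 CPM). The list was completed by the ribosomal protein genes Rps2 (2483 ± 197 CPM), Rpsa (2379 ± 134 CPM) and Rplp0 (2368 ± 29.4 CPM), the glutathione transferase gene Gstp1 (2452 ± 282 CPM), the initiation factor Eif4g2 (2134 ± 158 CPM), Ccnb1ip1 (2741 ± 1562 CPM) and the pigment cell genes Tyrp1 (2298 ± 608 CPM) and Gpnmb (2266 ± 260 CPM).

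Some of these counts are uncertain in origin. Gstp1 has a near-identical neighbour, Gstp2 (959 ± 167 CPM), and the split of reads between them depends on the counting. The same holds for the actins, tubulins, histones and ribosomal proteins, which have close copies or pseudogenes. Ccnb1ip1, a gene that shares sequence with Rpph1, a non-coding RNA transcribed in the same direction, varied most of these 20, with 1294, 2533 and 4397 CPM in replicates 1, 2 and 3, and its reads need not come from its mRNA.

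Level per length, the counts per kilobase of the longest protein-coding transcript scaled to a sum of 1000000, allows levels of different genes to be compared. On this scale Ftl1 came first (20271 ± 2633), ahead of Eef1a1 (17402 ± 732) and Gapdh (11279 ± 2730). The order of Ftl1 and Eef1a1 was not the same in every library. Ftl1 was below Eef1a1 in replicate 3 (17292 against 17603) and above it in the other libraries. Short transcripts moved up, and 12 genes stood among the first 20 by both measures. Ribosomal protein genes were 3 of the first 20 by CPM and 9 of the first 20 by level per length, and 47 of the first 100. Rplp1 of the ribosomal stalk (8036 ± 497), Rps2 (5522 ± 428), Rplp0 (4245 ± 123), Rpl8 (4000 ± 145), Rpl41 (3822 ± 715), Rps15 (3307 ± 372), Rps4x (3192 ± 100), Rpsa (2987 ± 146) and Rpl12 (2960 ± 668) were these 9. Other genes on this list were Gstp1 (7271 ± 886), the polyubiquitin gene Ubb (3328 ± 746) and Tpt1, a translationally controlled protein (3256 ± 176).

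Means weighted by level describe the transcripts that make up most of the counts, but for length the result is partly built in, because the weight is itself divided by transcript length. Weighted by level per length, the mean transcript length was 2411, 2480 and 2406 bases in replicates 1, 2 and 3, against a mean of 3774 bases over detected genes. The mean coding length weighted in the same way was 414, 420 and 403 codons, against 610. Codons that start with A are the group read by tRNAs that the KEOPS complex modifies. Their share per gene averaged 27.9%, 27.8% and 28.0% when genes were weighted by level. Without weights it averaged 26.7% over the detected genes, with a median of 27.0%. The weighted share of G and C was 51.9%, 51.7% and 51.5%, against 50.1%. Weighting thus moved the composition by less than 2 percentage points, and the libraries differed little in it.

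Among the gene families, cytoplasmic ribosomal proteins held the largest share of those counted, with 79 of 79 genes detected beside 49.0% of all listed genes. They took 5.32%, 4.84% and 5.61% of the counts in replicates 1, 2 and 3, and 13.5% ± 0.940 of the level per length. Glycolysis genes (19 of 20 detected) came next by mean share with 2.55%, 2.48% and 1.74%, below translation elongation factors in replicate 3 alone (2.01%, 1.98% and 1.90%), of which Eef1a1 alone made up 65.4% of the mean. Iron storage and uptake genes (10 of 10 detected) held 1.29%, 1.18% and 0.876%, of which Ftl1 made up 72.3%. The heavy ferritin chain Fth1 (1871, 1541 and 1001 CPM) followed it. Translation initiation factors held 1.44% ± 0.0241, with Eif4g2, Eif5a (1062 ± 101 CPM) and Eif1 (799 ± 120 CPM) as their first members.

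Housekeeping complexes were recovered nearly whole. All 78 mitochondrial ribosomal protein genes, all 28 RNA polymerase subunits, 36 of 39 proteasome subunits, 80 of 87 nuclear genes of oxidative phosphorylation and 50 of 52 splicing and hnRNP genes were detected. Their shares were 0.357% ± 0.0152, 0.215% ± 0.00988, 0.619% ± 0.0982, 1.04% ± 0.0514 and 0.997% ± 0.0899 of the counts. Beside the 49.0% of all listed genes, solute carriers were detected as often (48.7%, 181 of 372 genes, 1.11% ± 0.00942 of the counts) and zinc finger proteins in 82.3% of cases (386 of 469 genes, 1.30% ± 0.0359), a difference that was not tested. The proteasome differed most among these shares, at 0.693%, 0.655% and 0.508%. Their first members were Mrpl12 (152 ± 9.25 CPM), Polr2a, the large subunit of RNA polymerase II (380 ± 67.1 CPM), Atp5b of the ATP synthase (1041 ± 27.5 CPM), Hnrnpk, an RNA-binding protein (732 ± 56.3 CPM), the phosphate carrier Slc25a3 (785 ± 8.15 CPM) and Zbtb20 (517 ± 77.9 CPM).

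**Figure D1:**
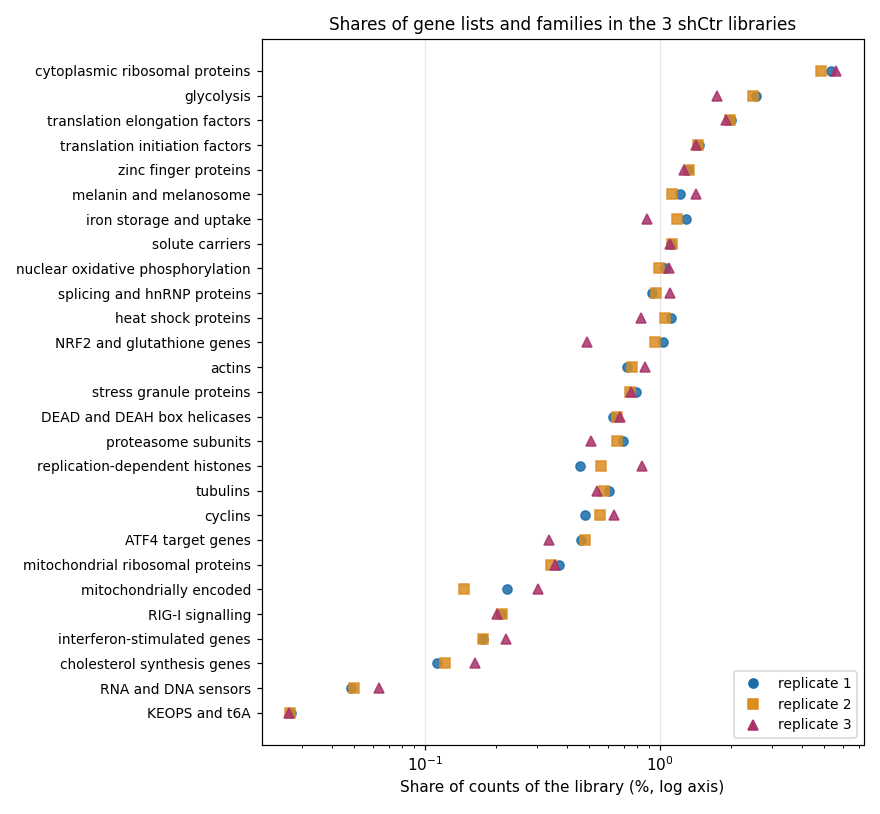
Share of the counts of each library (%, log axis) held by 27 gene lists and families, with 1 point per shCtr replicate. Cytoplasmic ribosomal proteins hold 4.84% to 5.61%, KEOPS genes 0.0263% to 0.0268%, and replicate 3 lies below both other libraries for the NRF2 and glutathione genes and above them for replication-dependent histones.

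Several families had few or no detected genes in these libraries, beside 49.0% of all listed genes. Of 1189 olfactory receptor genes 0 were detected and 1142 had 0 counts in every library, and of 331 vomeronasal receptor genes 0 were detected. Neither were any of the 64 defensins or the 641 immunoglobulin and T cell receptor segments. Of 49 keratins, 1 was detected, Krt80 (77.6, 75.9 and 90.5 CPM), and the epidermal keratins Krt5 and Krt14 had 0 counts. The 151 listed genes of the Y chromosome had 10 counts in all. The background of reads on silent genes was therefore low, since the olfactory receptors together reached 5.38, 3.75 and 6.53 CPM.

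Genes of pigment production were prominent. All 33 melanin and melanosome genes were detected, and together they held 1.21%, 1.12% and 1.42% of the counts. Of the 3 enzymes of melanin synthesis, Tyrp1 (1942, 1953 and 3000 CPM) and Dct (1438, 1242 and 1480 CPM) were far above Tyr, the tyrosinase that starts the pathway (153, 153 and 193 CPM). Per length the order was the same, at 2053 ± 522 for Tyrp1, 1531 ± 116 for Dct and 66.9 ± 8.62 for Tyr, so tyrosinase lay below both others by more than the spread of the libraries. Pmel, which forms the fibrils of the melanosome, reached 1105, 1060 and 1404 CPM, and Mlana, a melanosome protein and melanoma antigen, 516, 451 and 723 CPM. Per length, Mlana had 1510 ± 363, Gpnmb 1489 ± 153 and Pmel 1358 ± 198, and Dct lay above Pmel in every library.

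The other members covered transport, acidity and assembly of the melanosome. The transporters Slc45a2 (272, 304 and 438 CPM) and Slc24a5 (161, 141 and 159 CPM) and the copper pump Atp7a (59.5, 65.3 and 73.1 CPM) were present, while Oca2, which regulates melanosomal pH, was the lowest of the list by CPM (7.88, 7.69 and 9.35). Of the machinery that moves melanosomes along actin, Myo5a had 704 ± 103 CPM, Mlph 423 ± 122 CPM and Rab27a 236 ± 52.4 CPM. The small GTPases Rab38 and Rab32, which direct enzymes to the melanosome, differed in level, with 1158 ± 17.7 per length for Rab38 and 64.7 ± 24.6 for Rab32. Subunits of the BLOC complexes, which build the organelle, were low, from 19.1 ± 3.32 CPM for Hps6 to 86.8 ± 18.9 CPM for Hps3 among the 5 Hps genes, with Hps1 at 43.8 ± 7.70 CPM, Hps4 at 48.5 ± 1.53 CPM, Hps5 at 68.3 ± 8.67 CPM, Dtnbp1 at 55.9 ± 9.12 CPM and Bloc1s1, Bloc1s3 and Bloc1s5 at 19.6 ± 2.85, 31.0 ± 4.09 and 28.2 ± 4.30 CPM. The AP-3 adaptor genes Ap3d1 (269 ± 42.8 CPM) and Ap3b1 (169 ± 9.16 CPM), which sort cargo to the melanosome, the tetraspanin genes Tspan10 (196 ± 41.4 CPM) and Cd63 (182 ± 28.9 CPM), Mreg (171 ± 41.8 CPM), Lyst (147 ± 10.9 CPM) and the receptor gene Gpr143 (18.5 ± 2.35 CPM) were present as well. Trpm1, a channel encoded by a known MITF target gene, had 274 ± 43.5 CPM.

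Transcription factors of the melanocyte lineage accompanied these genes. Sox10, the factor of neural crest derived glia and melanocytes, had 884, 824 and 890 CPM and was the most abundant of the 20 lineage regulators. Mitf, the master regulator of pigment genes, had 297, 357 and 784 CPM, so replicate 3 was 2.64 times replicate 1. Pax3 (209, 159 and 157 CPM), Tfap2a (206, 192 and 300 CPM), Tbx2 (298, 289 and 272 CPM) and Zeb2 (317, 283 and 347 CPM) were detected as well. Per length, Sox10 (758 ± 19.5) lay above Mitf (238 ± 130) in all 3 libraries. The melanocortin receptor gene Mc1r (214 ± 34.8 CPM), the calcium-binding S100b (150 ± 16.3 CPM) and S100a1 (86.9 ± 13.9 CPM), the adhesion molecule Mcam (102 ± 9.71 CPM) and the receptor kinases Met (66.8 ± 20.5 CPM) and Erbb3 (48.3 ± 4.97 CPM) completed the group, with Snai2 low at 3.26 ± 0.177 CPM.

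Other lineage genes were low or had no counts. Of the 20 regulators, 13 were detected (65.0%, beside 49.0% of all listed genes), and Kit and Ednrb, receptors that melanoblasts need to survive and migrate, had 0 counts in all 3 libraries, as did Lef1, a nuclear effector of WNT signalling. Kitl, the ligand of KIT, passed 1 CPM in only some libraries (1.29, 0.817 and 1.36 CPM). Below 1 CPM in all 3 lay Cdh1, the epithelial cadherin that ties melanocytes to keratinocytes (0.645, 0.461 and 0.957 CPM), Irf4, a regulator of Tyr (0, 0.0419 and 0.191 CPM), and Tfap2b (3, 0 and 0 counts). The precipitates thus held transcripts of pigment genes and of SOX10, MITF and PAX3, while transcripts of the receptors KIT and EDNRB had no reads. Whether the latter were absent from the cells or not recovered with RIG-I cannot be told apart.

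Of the 22 neural crest and dedifferentiation markers, 8 were detected (36.4%, beside 49.0% of all listed genes), a difference that was not tested. Vim, the intermediate filament of mesenchymal and melanoma cells, made up 87.8% of their counts (1806, 1757 and 2065 CPM). Nes had 163, 164 and 80.1 CPM, Cdh2 36.9, 36.7 and 44.3 CPM, Sox9 30.3, 39.7 and 34.3 CPM and Fn1 46.4, 34.4 and 21.1 CPM. The receptors that mark dedifferentiated melanoma were low, with Axl at 8.88 ± 2.33 CPM, Pdgfrb at 4.19 ± 0.977 CPM and Ngfr, the neural crest stem cell marker, at 1.84 ± 0.315 CPM. Sox2, Foxd3, Twist1, Wnt5a, Tnc, Nt5e, Rxrg and Gfra2 had 0 counts in every library. Aqp1, Cd36, Egfr, Fosl1, Loxl2 and Zeb1 had some counts and stayed under 1 CPM in all 3 libraries, with Zeb1 at 0.273, 0.335 and 0.335 CPM beside Zeb2 at 316 ± 31.7 CPM. Over the 3 identity lists, 54 of 75 genes (72.0%) were detected and 11 had no count.

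**Figure D2:**
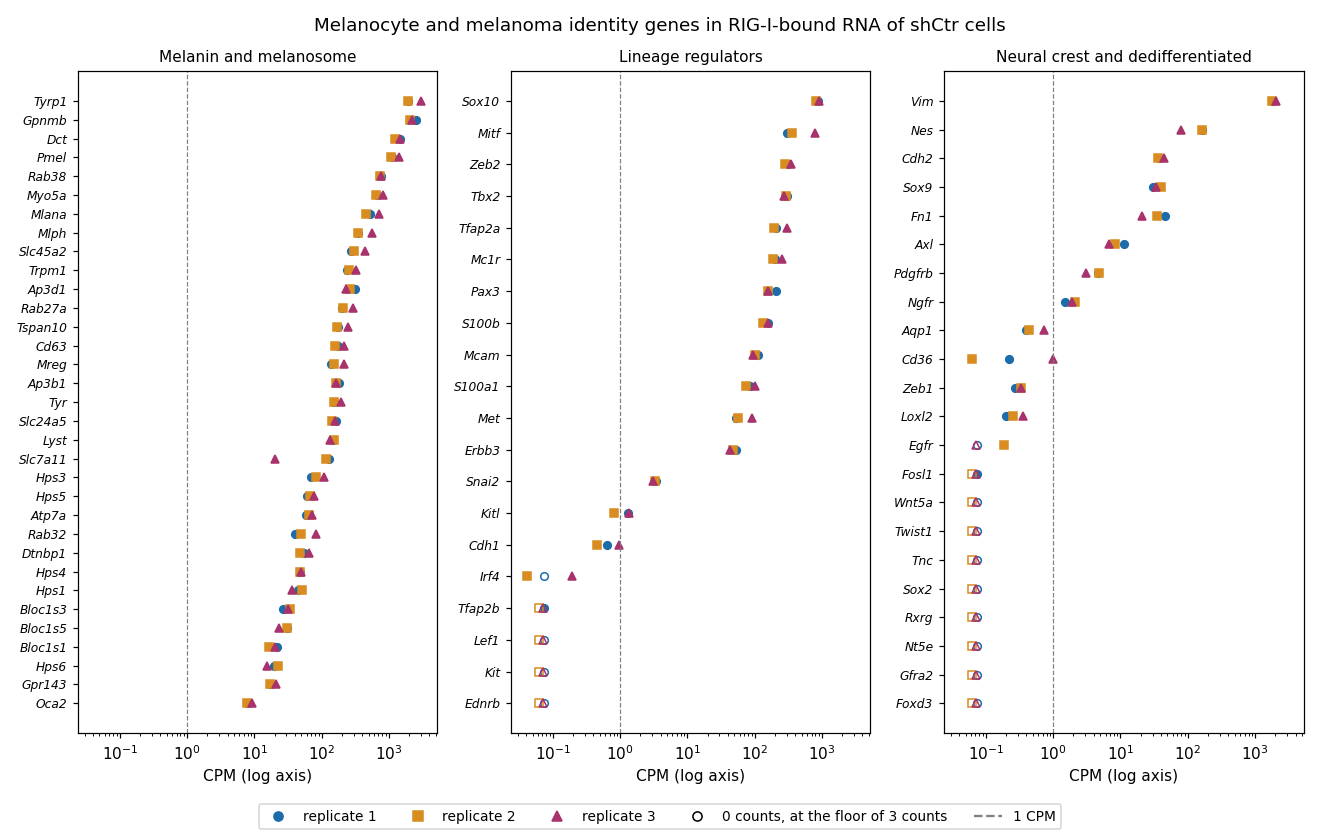
CPM (log axis) of the 75 melanocyte and melanoma identity genes in the 3 lists, with 1 point per shCtr replicate; open symbols are 0 counts, drawn at the level of 3 counts, and the dashed line is 1 CPM. All 33 melanin and melanosome genes lie right of the line, whereas Kit, Ednrb and Lef1 among the regulators and 8 of the dedifferentiation markers have 0 counts.

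Most markers of other cell types were not detected. Of 96 such markers in 10 lists, 11 were detected (11.5%, beside 49.0% of all listed genes), and 5 of the 11 belong to the list of neurons and glia. The pan-leukocyte gene Ptprc had 0.0992, 0 and 0.502 CPM, Cd3e, Cd3d and Cd3g of T cells had 0 counts, and no marker of B cells, macrophages, keratinocytes, erythroid cells or hepatocytes was detected. Summed over the 87 markers other than those of neurons and glia, the level was 82.2, 80.0 and 70.4 CPM, most of it from Des, an intermediate filament of muscle (52.3, 49.6 and 36.8 CPM), and Vwf of endothelial cells (9.20, 9.49 and 12.6 CPM). The defining genes Pecam1 and Cdh5 of endothelium and Acta1 and Myog of muscle were under 1 CPM, so neither list was present as a whole. Lck (1.76 ± 0.747 CPM) and the fibroblast genes Postn (3.95 ± 1.42 CPM), Col1a2 (2.32 ± 1.69 CPM) and Col1a1 (2.18 ± 0.962 CPM) were the other detected ones. The cells were a cultured line, and low abundance of a transcript and low recovery with RIG-I cannot be told apart here.

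Genes named for neurons and glia were detected more often than the other markers, in 55.6% of cases, which is near the 49.0% of all listed genes. Mbp, the myelin basic protein, reached 878, 872 and 1416 CPM, and Tubb3, a neuronal β-tubulin, 279, 251 and 142 CPM. These are 2 of the 5 detected members of the list, which has 9 genes, and 1 of the others had 0 counts in every library. Mbp alone made up 76.6% of the mean of the list, so the list as a whole was not high. Melanocytes and Schwann cells, the myelinating glia of nerves, both descend from the neural crest and both use SOX10, as background, and whether this accounts for the values was not tested.

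The proliferation list was detected in full, while 1 locus of cell cycle inhibitors had no reads. All 25 proliferation genes were detected (beside 49.0% of all listed genes), led by Ccnd2 (2729, 2964 and 3183 CPM), Ccnd1 (499, 569 and 567 CPM) and Ccnd3 (419, 479 and 574 CPM). Cdkn2a and Cdkn2b, which encode inhibitors of the cyclin D kinases and ARF, had 0 counts in all 3 libraries. Cdkn1a, the p21 inhibitor induced by p53, was high in contrast, with 934, 973 and 1002 CPM, and Trp53 itself had 188, 179 and 182 CPM. Per length, Cdkn1a (1135 ± 44.5) was at a level near that of Rab38. The tumour suppressors Nf1 (421 ± 11.7 CPM), Arid2 (263 ± 4.99 CPM), Bap1 (113 ± 3.52 CPM) and Rb1 (52.8 ± 5.78 CPM) were detected, as were the oncogenes Braf (198 ± 18.9 CPM), Nras (157 ± 15.6 CPM), Hras (97.5 ± 13.7 CPM), Map2k1 (203 ± 17.6 CPM), Rac1 (372 ± 43.5 CPM), Cdk4 (303 ± 53.2 CPM) and Mdm2 (203 ± 16.6 CPM). Myc had 58.9, 53.1 and 111.9 CPM, with replicate 3 apart, and Tert, the telomerase subunit, 1.49, 1.76 and 0.574 CPM.

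The sensor that was pulled down had transcripts in its own precipitate. Ddx58, which encodes RIG-I, had 180, 184 and 278 CPM, and its reads cannot be divided between the construct and the endogenous gene. Of the 22 listed sensors of RNA and DNA, 13 were detected (59.1%, beside 49.0% of all listed genes). Eif2ak2, the kinase PKR that double-stranded RNA activates, had 115, 111 and 130 CPM, Ifih1, which encodes the related sensor MDA5, 40.8, 47.2 and 54.9 CPM, and Dhx58, the regulatory member LGP2, 12.1, 12.5 and 10.8 CPM. Per length, Ddx58 (134 ± 33.5) exceeded Eif2ak2 (67.0 ± 4.92), Ifih1 (21.2 ± 3.10) and Dhx58 (11.9 ± 1.07) in every library. Oas1a of the oligoadenylate synthetases (47.4 ± 6.53 CPM), the DNA sensor Cgas (13.0 ± 1.68 CPM) and the endosomal Tlr3 (10.0 ± 2.05 CPM) were also present. Low but detected were Oas2 (8.34 ± 2.41 CPM), Oasl1 (5.37 ± 0.657 CPM), Oasl2 (4.29, 4.63 and 7.03 CPM) and Oas1b (4.03 ± 1.32 CPM) of the same family, while Ddx41, a helicase that senses DNA, had 30.6 ± 2.01 CPM. Zbp1, which senses Z-form nucleic acid (0.421, 1.01 and 2.99 CPM), Oas3 (0.372, 0.901 and 1.46 CPM), Ifi204 (0.0992, 0.126 and 0.837 CPM) and Nlrp1a (0.298, 0.314 and 0.191 CPM) lay near or under 1 CPM. Tlr8, Tlr9, Aim2 and Nlrp3, sensors used mainly by immune cells, had 0 counts, and Tlr7 had 3 counts in replicate 2 alone.

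Most genes of the signalling chain below RIG-I were present, while reads of interferon genes were missing. Of 30 genes of the pathway 27 were detected (beside 49.0% of all listed genes), among them Mavs (73.8, 70.4 and 72.2 CPM), Tbk1 (60.9, 58.3 and 40.3 CPM), Irf3 (38.6, 38.4 and 33.0 CPM) and Tmem173, which encodes STING (42.4, 37.7 and 43.2 CPM). The list was led by Zc3hav1, an antiviral zinc finger protein (408 ± 32.8 CPM), Traf3 (240 ± 15.6 CPM) and Rela (135 ± 21.1 CPM). The members that were not detected, named after their values were seen, were the ubiquitin ligase genes Trim25 (0, 0 and 2 counts) and Rnf125 (2, 8 and 4 counts) and the deubiquitinase gene Usp17la (1, 0 and 0 counts). All 19 listed interferon genes, Ifnb1 among them, had 0 counts in every library. Of the cytokines, Ccl5 (25.5, 16.9 and 20.9 CPM), Cxcl10 (13.0, 17.4 and 17.1 CPM) and Csf1 (19.4, 17.1 and 21.9 CPM) were detected, and Il6, Tnf and Cxcl1 were not.

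Interferon-stimulated genes had transcripts in spite of the missing interferon reads. Of 42, 34 were detected (81.0%, beside 49.0% of all listed genes), with Ifitm3 (250, 248 and 344 CPM), Ifi27 (249, 241 and 194 CPM) and Lgals3bp (148, 130 and 211 CPM) at the head, and the list held 0.176%, 0.177% and 0.222% of the counts. All 15 genes of interferon receptors and JAK-STAT signalling were detected, led by Jak1 (186 ± 7.40 CPM) and Ifngr2 (100 ± 5.00 CPM). Among genes of MHC class I presentation, 13 of 15 were detected, with Calr (531 ± 71.9 CPM), Canx (436 ± 17.5 CPM) and B2m (402, 272 and 493 CPM) first. The class I heavy chain gene H2-D1 had 81.4 ± 9.51 CPM and H2-K1 5.62 ± 0.393 CPM, values that depend on how reads of these alike genes were divided.

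The KEOPS complex, which makes the threonylcarbamoyl mark on tRNAs, and the related enzymes together held a small share, alike in the 3 libraries. All 8 listed genes of this group were detected (beside 49.0% of all listed genes). Together they held 0.0268%, 0.0266% and 0.0263% of the counts. Single members were not steadier than other genes. Their median coefficient of variation was 10.6%, beside 10.5% for all genes, each with a mean CPM of at least 10. Tprkb (117, 107 and 111 CPM) and Yrdc, which makes the donor molecule (49.9, 61.4 and 62.9 CPM), were the highest by CPM, and Lage3 (20.5, 22.5 and 22.1 CPM) and the mitochondrial paralogue Osgepl1 (28.5, 27.7 and 23.9 CPM) lay near Osgep. Per length, Osgep (13.1 ± 1.83) was below Tprkb (122 ± 4.55) and Lage3 (26.4 ± 1.60) in each library. Gon7 (9.27 ± 1.89 CPM), Cdkal1 (12.5 ± 2.01 CPM) and Trmo (7.72 ± 0.691 CPM) were the lowest.

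Enzymes that cut, edit or clear RNA were detected in all 22 listed cases (beside 49.0% of all listed genes) and held 0.116% ± 0.000766 of the counts. The microRNA nucleases Drosha (175 ± 15.7 CPM) and Dicer1 (167 ± 7.82 CPM) led them, followed by Adar, which edits double-stranded RNA and so limits its sensing (80.5 ± 5.32 CPM). All 20 cytosolic aminoacyl-tRNA synthetases were detected, first Gars (927, 988 and 733 CPM), Aars (715, 681 and 522 CPM) and Vars (376, 475 and 399 CPM), and 13 of them were lowest in replicate 3 (12 with the size factors of DESeq2), beside 41.1% of all 9187 genes with a mean CPM of at least 10.

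Genes of the integrated stress response and of stress granules were all detected, beside 49.0% of all listed genes. All 18 genes of the integrated stress response were detected, with its effector Atf4 at 863, 897 and 597 CPM, Asns, an ATF4 target that makes asparagine, at 514, 556 and 317 CPM, and Eif2s3x at 404 ± 28.0 CPM. The kinase gene Eif2ak1 (HRI) had 81.3, 67.0 and 58.7 CPM and Eif2s1, its substrate, 214, 217 and 242 CPM. All 24 stress granule genes were detected with 0.761% ± 0.0228 of the counts, led by the poly(A)-binding Pabpc1 (1529 ± 286 CPM), Caprin1 (784 ± 72.9 CPM) and the helicase Ddx3x (598 ± 74.9 CPM), while the granule nucleator G3bp1 had 326, 341 and 324 CPM. The list of genes that act as or overlap non-coding RNA had 3 members among the listed genes, namely Ccnb1ip1, Lars2 (296, 109 and 312 CPM) and Tug1 (123, 132 and 160 CPM).

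Most genes varied little among the 3 libraries. Over the 9187 genes with a mean CPM of at least 10, which held 99.0% of the counts in the library with the smallest such share, the median coefficient of variation was 10.5% and 84.9% of genes were under 20%. The highest CPM was at least 2 times the lowest in 185 of them (2.01%), and this count fell to 7 without replicate 3 and to 100 without replicate 1. The lowest coefficients of variation were those of Hars, the histidyl-tRNA synthetase gene (69.9, 69.8 and 69.9 CPM), and the ubiquitin ligase gene Trim65 (17.2, 17.2 and 17.3 CPM). The actin-binding Dbnl (167, 167 and 168 CPM), the microtubule-binding Camsap2 (149, 148 and 149 CPM) and the autophagy kinase gene Ulk1 (51.7, 51.4 and 51.6 CPM) followed. As extremes picked from 9187 genes over 3 libraries, these genes are not shown to be steadier than others. In 184 of the 185 genes replicate 3 was the lowest (105 genes) or the highest (79 genes), with Arl10 as the exception, named after its values were seen.

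Of the 15 genes with the widest range, 4 belong to the list of NRF2 and glutathione genes, which was chosen after values were seen. On this list 8 of 21 genes had a highest CPM at least 2 times the lowest, beside 2.01% of all 9187 genes. Slc7a11 is also on the melanin and melanosome list. Hmox1, the heme oxygenase gene induced by NRF2, had 1411, 1222 and 131 CPM, so replicate 1 was 10.7 times replicate 3, the widest range of all. Slc7a11, the cystine transporter that supplies glutathione synthesis and also affects pigment type, had 131, 116 and 19.97 CPM, Srxn1, the sulfiredoxin gene, 1232, 1143 and 240 CPM, and Blvrb, the biliverdin reductase that acts after heme oxygenase, 119, 120 and 33.1 CPM. Slc40a1, the iron exporter, followed with 47.6, 55.7 and 12.7 CPM. In each of these genes replicates 1 and 2 lay close together and replicate 3 far below. The other genes of this kind were Map1a, a microtubule-associated protein (73.0, 55.7 and 11.4 CPM), Tmem179 (31.7, 33.4 and 6.41 CPM), Bnip3, a mitophagy receptor (34.9, 43.9 and 10.3 CPM), and Pdk1, a kinase that holds back pyruvate oxidation (57.2, 77.0 and 21.8 CPM).

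Replicate 3 was instead the highest for a smaller set. Id2, an inhibitor of helix-loop-helix factors, had 45.2, 50.7 and 169 CPM, the histone gene Hist1h2ah 6.47, 11.2 and 33.9 CPM, and the unnamed gene model Gm20431 16.4, 47.2 and 75.7 CPM. The mitochondrially encoded mt-Nd5 (14.9, 7.04 and 26.4 CPM) and mt-Nd4 (38.3, 17.6 and 64.4 CPM) had their lowest value in replicate 2. Gm49388 was high in replicate 2 alone (4.26, 22.1 and 3.90 CPM). Histone genes and gene models that overlap others share reads, so these values are uncertain.

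**Figure D3:**
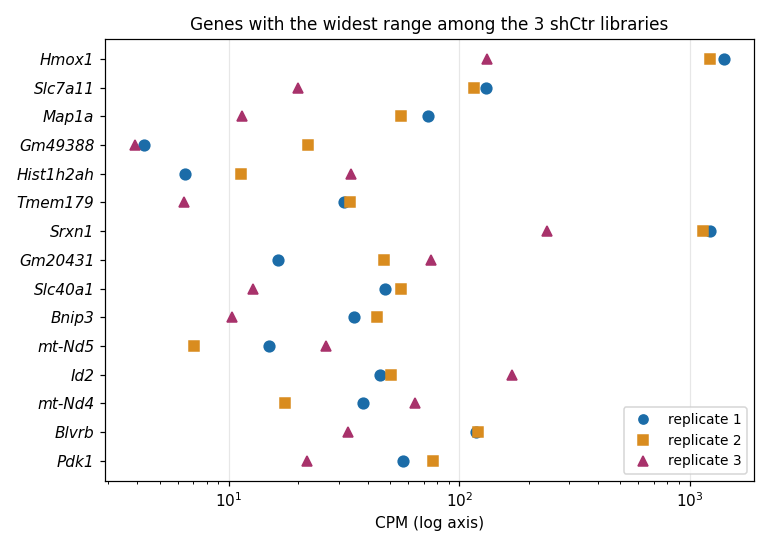
CPM (log axis) of the 15 genes with the widest ratio of highest to lowest CPM among genes with a mean CPM of at least 10, with 1 point per shCtr replicate. In 9 of the 15 replicates 1 and 2 lie together above replicate 3, as for Hmox1 at 131 CPM against 1411 and 1222.

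Some gene lists had the same split, and others did not. Of all 9187 genes, 41.1% had their lowest CPM in replicate 3, 35.6% in replicate 1 and 23.3% in replicate 2, and 38.2%, 33.6% and 28.2% had their highest in replicates 3, 1 and 2. The lists of NRF2 and glutathione, ATF4 target and hypoxia-induced genes were chosen after values were seen, so counts on these lists test nothing. Of 21 NRF2 and glutathione genes, 20 were lowest in replicate 3, and the list held 1.02%, 0.946% and 0.489% of the counts. Prdx1 (1472, 1259 and 962 CPM) and Txnrd1 (1276, 1361 and 780 CPM) were its most abundant members, followed by Hmox1. Of 20 ATF4 target genes, 18 were lowest in replicate 3 (17 with the size factors of DESeq2), among them Asns, Shmt2 (429, 453 and 374 CPM) and Mthfd2 (455, 445 and 335 CPM). Glycolysis genes were lowest there in 16 of 19 cases, as for Gapdh, Eno1 and Aldoa, proteasome subunits in 32 of 35, as for Psmd2 (605, 607 and 438 CPM) and Psmd11 (492, 515 and 326 CPM), and heat shock proteins in 13 of 18, as for Hspa8 (3481, 3102 and 2105 CPM). Hypoxia-induced genes were lowest there in 12 of 15 cases. In 13 of the 15 replicate 2 was the highest, as for Hif1a (198, 219 and 204 CPM), Ddit4 (158, 194 and 156 CPM) and Ero1l (148, 163 and 118 CPM). Replicate 2 was the lowest for 51 of 79 cytoplasmic ribosomal protein genes and for 45 of 79 nuclear genes of oxidative phosphorylation, beside 23.3% of all genes.

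Other lists were mostly highest in replicate 3. Of 39 replication-dependent histone genes 35 were highest in replicate 3, and the family held 0.456%, 0.558% and 0.834% of the counts, with Hist2h2aa1 (259, 314 and 687 CPM), Hist1h1c (274, 397 and 559 CPM) and Hist2h3c2 (232, 273 and 531 CPM) first. Proliferation genes were highest there in 23 of 25 cases (24 with TMM scaling or the size factors of DESeq2), for example Ccnd2 and Ccnd3. Cholesterol synthesis genes, a list also chosen after values were seen, were highest there in 16 of 20 cases. Insig1 (126, 149 and 232 CPM) and Hmgcs1 (101, 126 and 164 CPM) were among them, but not Fdps (114, 129 and 123 CPM). Of 27 interferon-stimulated genes 22 were highest in replicate 3, as Ifitm3 and Lgals3bp, and Ifi27 was not. Of 32 melanin and melanosome genes 21 were highest there, with Tyrp1, Mlana, Mlph (352, 352 and 564 CPM) and Rab32 (39.7, 49.7 and 82.3 CPM), in the library in which Mitf was highest too. All 8 mitochondrially encoded genes at this level were highest in replicate 3 and lowest in replicate 2, as for mt-Co1 (1080, 797 and 1654 CPM), mt-Co3 (497, 304 and 591 CPM) and mt-Cytb (379, 204 and 398 CPM). Each replicate is an experiment of its own, so a difference of experiment, batch or culture cannot be told apart from the library here, and the cause was not tested.

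The promoters of pigment genes are shown because MITF is known to bind a motif named the M-box in some of them. RefSeq promoters of GRCm38.p6 (300 bases, from 250 before to 50 after the start of the gene) were searched for TCATGTG on both strands, a motif chosen after the levels were seen. Of the 33 melanin and melanosome genes, 28 had a promoter in the set, 32 promoters in all, and 8 genes held the motif, which was in 25.0% of these promoters, in 1.97% of the promoters of detected genes and in 3.77% of all 32851. The genes were Dct, Hps1, Slc24a5, Slc7a11, Trpm1, Tspan10, Tyr and Tyrp1. Among the members with the motif, Tyrp1, Tyr and Dct were highest in replicate 3, Slc24a5 was not, and Slc7a11 was lowest there. The members thus did not all share a pattern among the libraries, and a link of the motif to the levels was not tested. A match describes the letters in the window and is no evidence of binding. The promoters of Tyrp1 (chr4:80833963-80834262, plus strand), Tyr (chr7:87493463-87493762, minus strand) and Dct (chr14:118052197-118052496, minus strand) follow 5′ to 3′ with the motif or its reverse complement in capitals; Dct holds 2 matches.
Tyrp1: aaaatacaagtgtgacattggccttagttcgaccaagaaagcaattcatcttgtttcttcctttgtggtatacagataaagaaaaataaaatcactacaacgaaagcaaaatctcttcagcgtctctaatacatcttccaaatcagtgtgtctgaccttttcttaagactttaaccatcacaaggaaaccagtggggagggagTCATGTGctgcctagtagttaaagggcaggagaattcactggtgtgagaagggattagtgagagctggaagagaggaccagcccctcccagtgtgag
Tyr: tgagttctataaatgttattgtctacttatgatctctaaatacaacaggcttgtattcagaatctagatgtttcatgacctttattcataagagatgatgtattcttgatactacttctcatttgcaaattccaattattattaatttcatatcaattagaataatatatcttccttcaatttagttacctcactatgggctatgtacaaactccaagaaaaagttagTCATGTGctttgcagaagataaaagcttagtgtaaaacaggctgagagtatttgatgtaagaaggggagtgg
Dct: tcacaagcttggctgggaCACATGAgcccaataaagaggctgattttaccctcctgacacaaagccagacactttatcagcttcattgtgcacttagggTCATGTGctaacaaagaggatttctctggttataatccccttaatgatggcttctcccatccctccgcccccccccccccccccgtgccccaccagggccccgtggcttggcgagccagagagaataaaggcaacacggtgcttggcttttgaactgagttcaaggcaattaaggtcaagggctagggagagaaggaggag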

How the data were processed

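Counts per gene were deposited by the authors as whole numbers, without normalization. The submitters' processing notes name bcl2fastq, Trim Galore, STAR and Salmon, and reads were aligned to GRCm39. The 3 shCtr columns were used. CPM used the library total, and level per length used the longest protein-coding transcript of GENCODE for GRCm38, matched by identifier (22285 of 22396), so no coordinates of the counts are given. Where 1 symbol had several identifiers, the one with more counts was taken. The 3 samples form 1 group, so no test was run. Dispersion was estimated with edgeR 4.0.16 (R 4.3.3) after TMM and filterByExpr, and DESeq2 1.42.0 gave size factors. These steps were tested on simulated data. Tables came from Python 3.11.15 with pandas 2.3.3, statistics from numpy 2.4.6 and scipy 1.17.1, and figures from matplotlib 3.10.9.

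The members and lists were chosen with earlier results of these data known. Genes were named by a rule: the first 20 by CPM and by level per length, the first 3 of each list, identity genes under 1 CPM, the 15 with the widest range and the 5 steadiest, genes the study names, and members of the pigment, lineage, sensor, interferon, KEOPS and tumour suppressor lists. Not every gene that meets the rule is named. Further members named as examples of a list, some family patterns and the motifs were chosen after values were seen. So were the lists of NRF2 and glutathione, hypoxia-induced, ATF4 target, immediate early and cholesterol genes. Another motif searched, TGACNNNGC of the antioxidant response element (N is any base), was in 30.8% of promoters of NRF2 and glutathione genes. It was in 14.2% of the promoters of detected genes and in 12.4% of all 32851. Of the immediate early list, 19 of 22 genes were detected, beside 49.0% of all listed genes. Of its 13 genes with a mean CPM of at least 10, 6 were highest and 6 lowest in replicate 3. These counts stand beside 38.2% and 41.1% of all genes at this level.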

Additional observations from a re-analysis of the deposited data

How the results depend on the processing

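No paired analysis was possible because the 3 libraries form 1 group and no test was run. The numbers of detected genes (10970 to 11776) and of identity genes (54 to 58) and the share of the 10 genes with most counts changed little under every alternative. Detected markers of other cell types numbered 14 at 0.5 CPM, 16 at 10 counts and 11 or 12 otherwise. With merged exons as length, 14 of the first 20 genes by level per length were kept, and 17 to 20 without 1 replicate. The share of ribosomal protein genes was 13.5% per kilobase, since they are short. The median coefficient of variation was 11.6% with genes of a mean CPM of at least 1, 9.70% with at least 50, and 6.72% to 10.8% without 1 replicate. Genes that vary numbered 1206 at 1.5 times, 26 at 3 times, 576 with a mean CPM of at least 1, and 7 to 157 without 1 replicate, the lowest without replicate 3. The common dispersion was 0.0368 with no filter and 0.0130 to 0.0430 without 1 replicate, again lowest without replicate 3; the cause was not tested. TMM and DESeq2 scaling gave 184 and 182 varying genes. Of 300 alternative values for 60 other family shares, 49 moved by 1 SD or more, 47 of them per kilobase.

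Limits are the absence of input or mock values here, which leaves binding and abundance together, 3 libraries of which 1 stood apart, counts without molecular identifiers, transcripts with close copies or overlaps, and lengths taken from an earlier annotation.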

Other observations

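Among genes of membrane traffic and lysosomes in the shCtr libraries, proton pump subunits (73.1%) and Rab GTPases (74.6%) were detected more often than the 49.0% of all listed genes, and cathepsins (44.4%) nearly as often, differences that were not tested. Of 26 subunit genes of the proton pump, which acidifies lysosomes and melanosomes, 19 were detected, with 0.446%, 0.461% and 0.497% of the counts in replicates 1, 2 and 3. Atp6v0c (825, 837 and 1019 CPM), Atp6v1b2 (499, 598 and 627 CPM) and Atp6v1a (502, 585 and 483 CPM) led them. Of 18 cathepsins 8 were detected, with the lysosomal protease Ctsd at 1004, 762 and 751 CPM. Among 59 Rab GTPases 44 were detected, and their share differed little among the libraries (0.567%, 0.565% and 0.561%), with Rab7 of late endosomes (829, 747 and 719 CPM) and the melanosomal Rab38 (751, 729 and 772 CPM) as the first members.

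Laminins (45.5%) and integrins (46.2%) were detected nearly as often as the 49.0% of all listed genes, and collagens in 31.8% of cases, a difference that was not tested. Of 44 collagens 14 were detected and held 0.00883%, 0.00917% and 0.0103% of the counts, led by Col5a1 (14.7, 13.9 and 11.1 CPM), Col15a1 (11.1, 12.1 and 10.4 CPM) and Col5a3 (12.3, 9.44 and 11.8 CPM). Of 11 laminins 5 were detected, first Lamc1 (52.8, 48.4 and 46.7 CPM), and of 26 integrins 12, first Itgb1 (157, 154 and 182 CPM), which encodes the β1 subunit shared by many matrix receptors. Of 39 Hox genes, which keep the position of a cell along the body axis, 18 were detected, with Hoxb9 (78.5, 80.4 and 42.5 CPM) and Hoxa10 (53.8, 65.8 and 64.1 CPM) first.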
